A study of Mus musculus with 18 samples.

Results

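Myc and 7 amino acid transporter genes (Slc7a5, Slc3a2, Slc1a5, Slc38a1, Slc38a2, Slc7a1 and Slc7a6) were followed in mouse regulatory T (Treg) cells from 6 sites. These 8 genes were picked by name out of the 55487 gene IDs in the deposited tables, and all 8 had a value in each of the 18 libraries. The libraries came from poly(A) RNA of freshly prepared Treg cells of wild-type mice that received no treatment, with 3 libraries each from peripheral blood, bone marrow, spleen, lymph node, liver and lung. The series sets circulating Treg cells against those of other sites. Sorting gates, strain, age, number of mice and whether the 3 libraries of a site came from separate mice are not given in the sources used here, so the p-values measure only the spread between these libraries, which may be technical.

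Treg cells are CD4+ lymphocytes marked by Foxp3, a lineage-defining transcription factor, and they restrain immune responses. Myc is a transcription factor that drives ribosome production, nucleotide synthesis and growth in activated T cells, and amino acid uptake limits that growth. Slc3a2 encodes the CD98 heavy chain, which carries light chains to the cell surface. Slc7a5 (LAT1) is the light chain that brings in leucine and other large neutral amino acids, and Slc7a6 (y+LAT2) is a light chain that exchanges cationic for neutral amino acids. Slc1a5 (ASCT2) exchanges small neutral amino acids, glutamine among them, Slc38a1 and Slc38a2 (SNAT1 and SNAT2) take up glutamine and alanine with sodium, and Slc7a1 (CAT1) takes up arginine and lysine.

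In the mouse genome (GRCm38, GENCODE M21), Myc lies at chr15:61985391-61990374 on the plus strand, and Slc38a1 (chr15:96571418-96642913) and Slc38a2 (chr15:96687392-96699730) lie on the minus strand of the same chromosome. Slc3a2 is at chr19:8706882-8723369 and Slc7a1 at chr5:148327410-148399904, both on the minus strand. Slc1a5 (chr7:16781340-16798274) and Slc7a6 (chr8:106168857-106198706) are on the plus strand. Apart from Slc7a5, described with its values, none overlaps another annotated gene.

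Levels are given in TPM, a share of all transcripts that corrects for transcript length and adds up to the same total in each library. All 15 general T cell genes and all 7 Treg markers were detected at a mean of at least 1 TPM in every site, and Foxp3 lay between 88.7 ± 3.39 TPM in blood and 238.5 ± 2.14 TPM in lymph node (SD, n = 3). Markers of other cells differed widely. The 14 neutrophil and monocyte markers summed to 28017 to 28866 TPM in the blood libraries and 40425 to 40750 TPM in bone marrow, against 40.5 to 78.4 TPM in lymph node, 164 to 377 TPM in liver, 652 to 807 TPM in spleen and 1709 to 1782 TPM in lung. Platelet markers (7 genes) summed to 2748 to 2868 TPM in blood and at most 82.3 TPM elsewhere, with Gp1bb at 0 in lymph node, liver and lung and Tubb1 at 0 in spleen. Erythroid markers (7 genes) were highest in liver, at 10932 to 11969 TPM. Lung epithelium markers (5 genes) summed to 221 to 292 TPM in lung and at most 1.62 TPM elsewhere, and hepatocyte markers (5 genes) to 5.10 to 17.9 TPM in liver. Cytotoxic T and natural killer markers (6 genes) summed to 452 to 515 TPM in blood and at most 77.1 TPM elsewhere, and B cell markers (5 genes) to 525 to 546 TPM in blood and 45.1 to 96.3 TPM in liver. Cytotoxic T cells also express general T cell genes. The 7 Treg markers ranged from sums of 654 to 660 TPM in blood to 2749 to 2858 TPM in lung. The 15 T cell genes summed to 3177 to 3269 TPM in blood and 8012 to 8039 TPM in lymph node. Each comparison was therefore run on TPM and again after each library was scaled to the geometric mean of those 15 T cell genes, called T cell scaling below. The part of the other cells' RNA in the results was not tested, and in bulk RNA fewer cells of a type and less RNA per cell cannot be told apart.

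**Figure D1:**
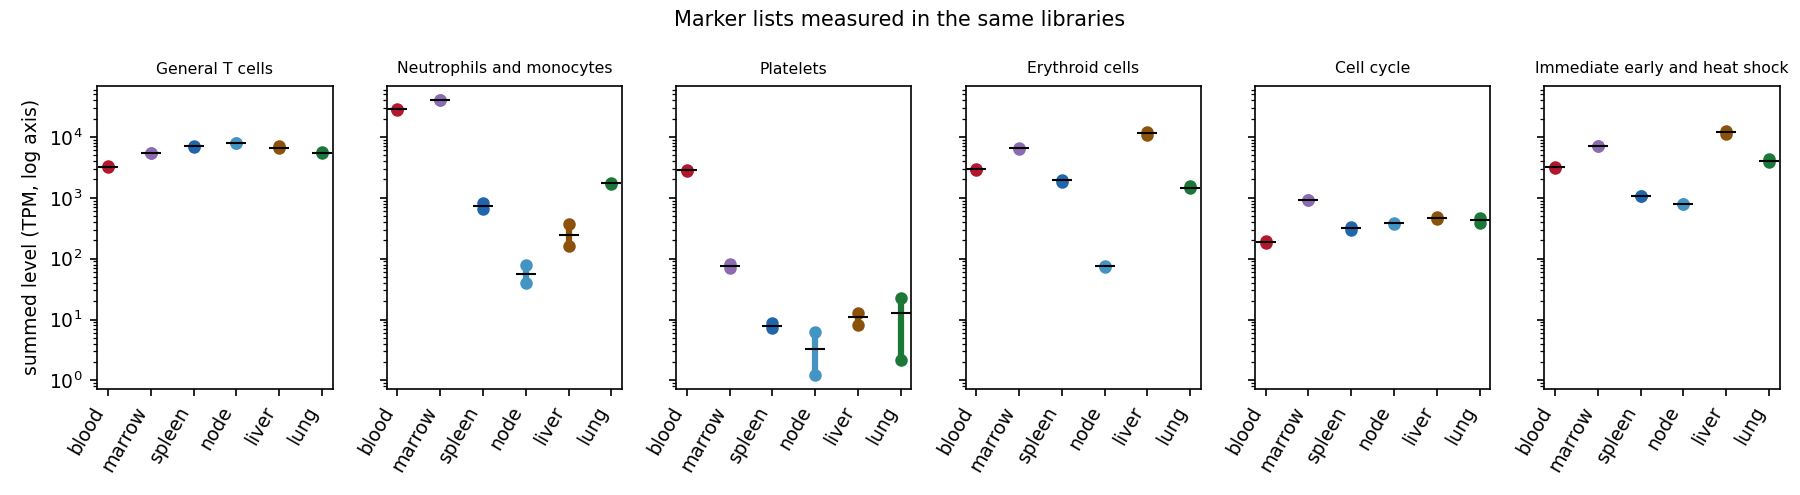
Summed TPM of 6 marker lists (y axis, log scale) in the 6 sites (x axis). Dots joined by a line are the lowest and highest of the 3 libraries and the black bar is their mean. Neutrophil and monocyte markers lie above 28017 TPM in blood and bone marrow and below 1782 TPM in the other 4 sites, while the T cell list is lowest in blood.

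All 8 genes were above 0 in every library. The lowest mean was Slc7a1 in blood at 10.6 ± 0.534 TPM. Judged by the step between low TPM values, the liver libraries were the shallowest, and their lowest member, Slc7a5, still rested on about 32.6 reads per kb of transcript, against 115 reads per kb for the lowest member in blood. In lung, Slc3a2 was the most abundant of the 8, in blood Slc38a2, and in bone marrow, spleen, lymph node and liver Slc1a5. Slc7a5, Slc7a1 and Slc7a6 held the 3 lowest places in every site.

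Each of the 8 genes passed the limma F test for any difference among the 6 sites (Benjamini-Hochberg adjusted p from 9.02e-12 for Slc38a2 to 0.00211 for Slc7a6). Of all 16694 genes tested, 68.0% passed, so the count alone sets these genes little apart. Under T cell scaling 7 of the 8 passed, against 78.3% of all genes, and Slc7a6 did not (adjusted p = 0.0719). Over the 15 pairs of sites, 79 of the 120 member comparisons were called at an adjusted p under 0.05, against 33.8% over all genes and pairs. Standard errors of the 8 members ran from 0.0605 to 0.2248, below the median of 0.254 over all genes tested. The part of this precision in the higher share was not tested. Of those 79, 42 were also called in the same direction under T cell scaling and 35 in every one of the alternative settings run. The share of calls kept over all genes was not counted, so counts of kept calls, here and below, have no baseline. Blood had 4 of 8 members called against bone marrow (31.8% of all genes), 3 against spleen (35.4%), 8 against lymph node (37.4%), 6 against liver (39.4%) and 7 against lung (43.7%). Bone marrow had 3 called against spleen (24.1%), 6 against lymph node (22.5%), 5 against liver (34.5%) and 6 against lung (43.5%). Spleen had 5 called against lymph node (14.3%), 6 against liver (31.3%) and 4 against lung (40.8%). Lymph node had 5 called against liver (31.1%) and 4 against lung (42.3%), and liver had 7 against lung (34.9%). The pair with the fewest called genes overall was spleen and lymph node, where all 5 called members (Myc, Slc7a5, Slc38a1, Slc38a2, Slc7a1) were higher in lymph node and none of the 5 was kept under T cell scaling. Among spleen, lymph node, liver and lung, where myeloid marker sums were low, 31 of 48 comparisons were called against 32.4% of all genes, and 23 of the 31 were kept under T cell scaling.

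In TPM, 3 members peaked in lymph node (Myc, Slc7a5, Slc7a6), 3 in liver (Slc1a5, Slc38a1, Slc38a2) and 2 in lung (Slc3a2, Slc7a1), and 5 were lowest in blood. The share of all genes with their highest or lowest mean in each site was not counted, so these counts have no baseline. With T cell scaling the peaks of Slc3a2 and Slc7a1 stayed in lung, while Slc7a5 also peaked in lung, Slc1a5 in bone marrow, and Myc, Slc38a1, Slc38a2 and Slc7a6 in blood. Under either scaling the highest site differed from the next by the test for Slc3a2, Slc38a2 and Slc7a1 only. With T cell scaling the limma adjusted p was 0.795 for Slc7a5 in lung against lymph node.

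**Figure D2:**
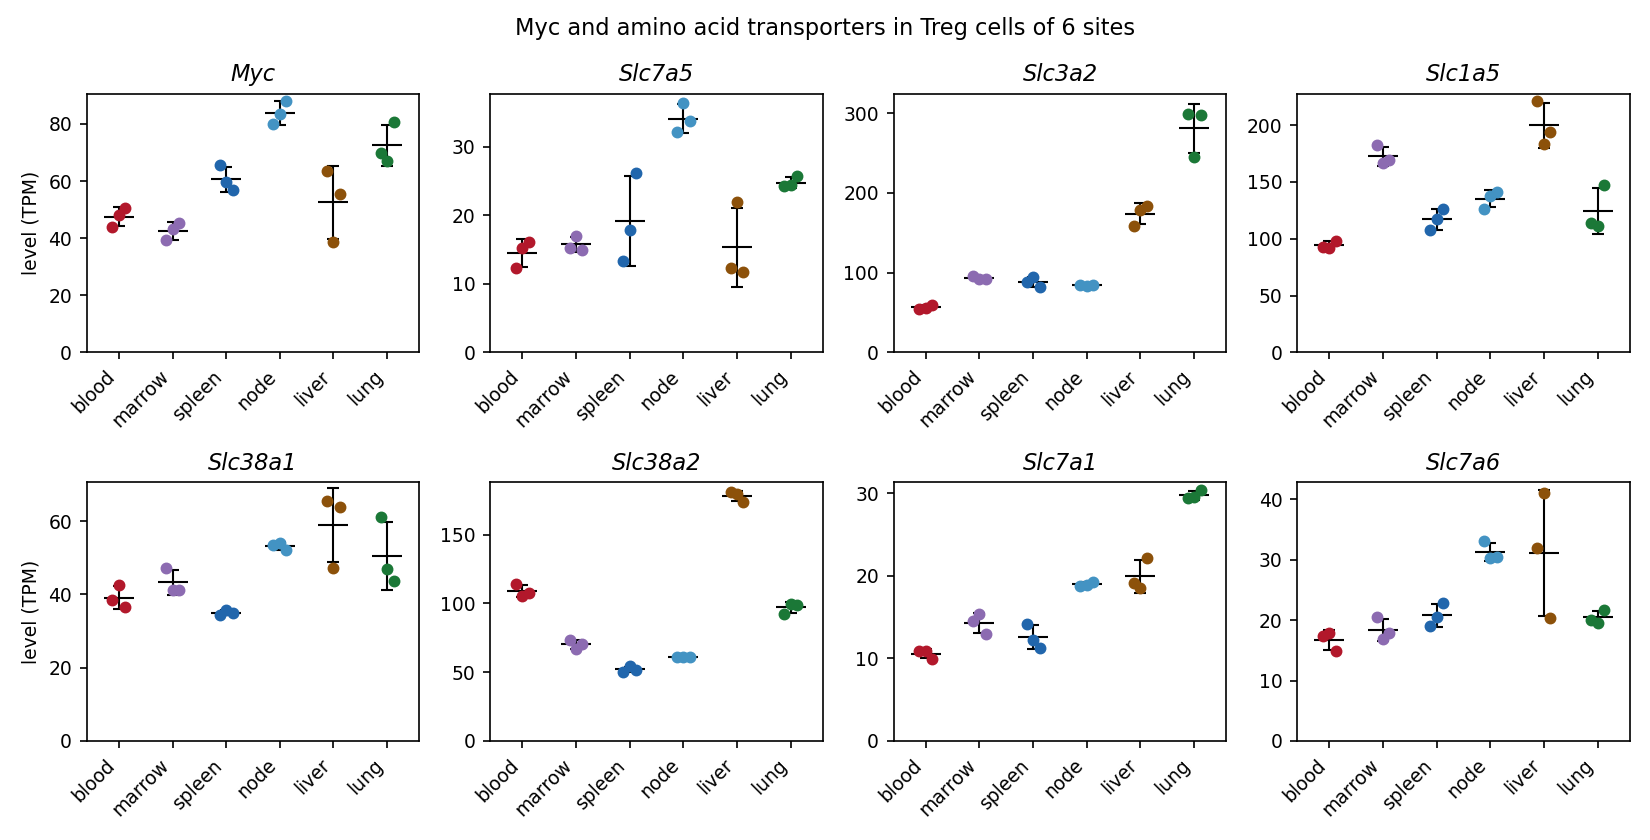
Level in TPM (y axis, linear, from 0) of each of the 8 genes in the 18 libraries, by site (x axis). Points are libraries, the black dash is the mean and the bars are the SD of 3 libraries. Slc3a2 reaches 245 to 299 TPM in lung and at most 184 TPM elsewhere, and Slc38a2 reaches 174 to 181 TPM in liver and at most 114 TPM elsewhere.

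Myc transcripts in TPM were most abundant in lymph node Treg cells and least abundant in bone marrow, while T cell scaling put blood highest and liver lowest. Under that scaling blood against lung did not pass the test (limma adjusted p = 0.722). The 3 lymph node libraries held 79.97, 83.5 and 88.2 TPM and the 3 lung libraries 69.7, 67.2 and 80.5 TPM. Spleen held 65.5, 59.7 and 56.8 TPM, and liver 63.6, 38.6 and 55.5 TPM. Blood held 43.95, 48.0 and 50.5 TPM, and bone marrow 39.2, 43.3 and 45.2 TPM. The lymph node libraries lay above all spleen, liver, blood and bone marrow libraries, lung overlapped lymph node at its upper end, and the second liver library fell below the range of blood and bone marrow. Between neighbours in this order no difference passed the test. Myc was 1.68-fold higher in lung than in bone marrow (log2 difference 0.75, SE 0.14, limma adjusted p = 0.000426), which held in all alternatives and was 0.66 under T cell scaling (adjusted p = 0.00103). Lymph node exceeded liver by 0.69 (SE 0.14, adjusted p = 0.00145), and by 0.44 under T cell scaling (adjusted p = 0.028), a call lost with only these 2 sites in the fit (adjusted p = 0.0568). Lymph node exceeded bone marrow by 0.96 (adjusted p = 7.09e-05), a call lost under T cell scaling at 0.32 (adjusted p = 0.072). The lung to liver difference of 0.48 (adjusted p = 0.0146) was lost without the second liver library, at 0.28 (adjusted p = 0.0521), without the third lung library, at 0.40 (adjusted p = 0.0599), and with library weights (adjusted p = 0.115) or only these 2 sites in the fit (adjusted p = 0.249).

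Slc3a2, the CD98 heavy chain, had the widest range of the 8 genes. Lung libraries held 299, 245 and 298 TPM and liver libraries 159, 179 and 184 TPM. Bone marrow held 96.0, 92.7 and 92.4 TPM, spleen 88.4, 94.3 and 82.0 TPM, and lymph node 85.1, 83.0 and 84.5 TPM. Blood was lowest at 54.7, 56.3 and 59.5 TPM. Lung stood above liver and liver above the remaining sites with no overlap, whereas in TPM none of the pairs among bone marrow, spleen and lymph node passed the test (adjusted p from 0.237 to 0.733). Under T cell scaling all 3 pairs passed, with bone marrow above spleen by 0.48 (adjusted p = 0.000246) and above lymph node by 0.80 (adjusted p = 1.09e-06), and spleen above lymph node by 0.32 (adjusted p = 0.0189). Bone marrow against lymph node also passed with library weights (adjusted p = 0.00504) and with only these 2 sites in the fit (adjusted p = 0.0106). Lung exceeded blood 4.85-fold (log2 difference 2.28, SE 0.08, limma adjusted p = 3.95e-12), lymph node 3.29-fold (1.72, adjusted p = 1.12e-10) and liver 1.61-fold (0.69, adjusted p = 9.06e-06). Liver exceeded lymph node by 1.03 (adjusted p = 1.54e-07) and spleen by 0.97 (adjusted p = 2.91e-07). All 9 comparisons of lung or liver with another site, or with each other, were called in every alternative, and T cell scaling gave 1.62 for lung over blood and 2.27 for lung over lymph node. The low place of blood depended on the scaling. Blood was below spleen by 0.62 in TPM (adjusted p = 1.59e-05) and above it by 0.33 after T cell scaling (adjusted p = 0.00268).

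Slc7a5 and Slc7a6, the measured light chain members, did not follow the heavy chain. Slc7a5 was highest in lymph node at 32.2, 36.5 and 33.8 TPM, followed by lung at 24.3, 24.4 and 25.7 TPM. Spleen spread from 13.4 over 17.8 to 26.3 TPM and liver read 12.4, 21.99 and 11.7 TPM. Bone marrow gave 15.2, 17.1 and 15.02 TPM, and blood 12.3, 15.2 and 16.1 TPM. Every lymph node library exceeded every other library, and the liver and spleen libraries overlapped blood and bone marrow. Lymph node exceeded liver 2.23-fold (log2 difference 1.16, SE 0.22, limma adjusted p = 0.00105), the 1 call of 7 for Slc7a5 that held in all alternatives, with 0.91 after T cell scaling (adjusted p = 0.00764). Lung exceeded liver by 0.71 (adjusted p = 0.0226), lost without the first liver library (0.59, adjusted p = 0.078), without the third (0.55, adjusted p = 0.0897) and without the third lung library (0.68, adjusted p = 0.0564). It was also lost with library weights (adjusted p = 0.198), with only the 2 sites in the fit (adjusted p = 0.177) and without blood and bone marrow in the fit (adjusted p = 0.065). Lymph node against lung did not pass the test over all 18 libraries (0.45, adjusted p = 0.128) although their libraries did not overlap, and it passed with only these 2 sites in the fit (adjusted p = 0.00907). Slc7a5 lies at chr8:121881150-121907694 (GRCm38, minus strand), within the span of the gene model Gm20388 on the opposite strand but over none of its exons.

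Slc7a6 read 33.0, 30.3 and 30.5 TPM in lymph node and 31.9, 41.1 and 20.3 TPM in liver. The other 4 sites ran from 14.8 TPM in a blood library to 22.8 TPM in a spleen library. Lymph node libraries were above all of these, and the liver libraries spanned most of the range seen in the series. Lymph node exceeded blood 1.82-fold (0.87, SE 0.18, adjusted p = 0.00136) in TPM, but after T cell scaling blood was the higher by 0.31 (adjusted p = 0.161). None of the 7 calls for Slc7a6 was kept under T cell scaling.

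The ratio of heavy chain to the 2 light chains within a library does not depend on scaling. Slc3a2 over the sum of Slc7a5 and Slc7a6 was 6.75, 5.58 and 6.28 in lung and 3.59, 2.84 and 5.74 in liver. It was 2.69, 2.73 and 2.81 in bone marrow, 2.73, 2.46 and 1.67 in spleen, 1.84, 1.70 and 1.92 in blood and 1.31, 1.24 and 1.31 in lymph node. The 3 lymph node ratios were the lowest of all 18, and lung and liver overlapped through the third liver library. With the other CD98 light chains on the list added to the denominator (6 light chain genes in all), the means were 5.25 ± 0.938 in lung, 3.35 ± 0.896 in liver and between 1.12 ± 0.093 and 2.24 ± 0.0212 in the other sites. With these 6 light chains the third spleen library had the lowest ratio, 0.993, below the lymph node libraries at 1.11, 1.03 and 1.22, and blood, at 1.17, 1.14 and 1.26, overlapped lymph node. These ratios were formed after the values had been seen and are given without a test. The part of other cells' RNA in them was not tested.

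**Figure D3:**
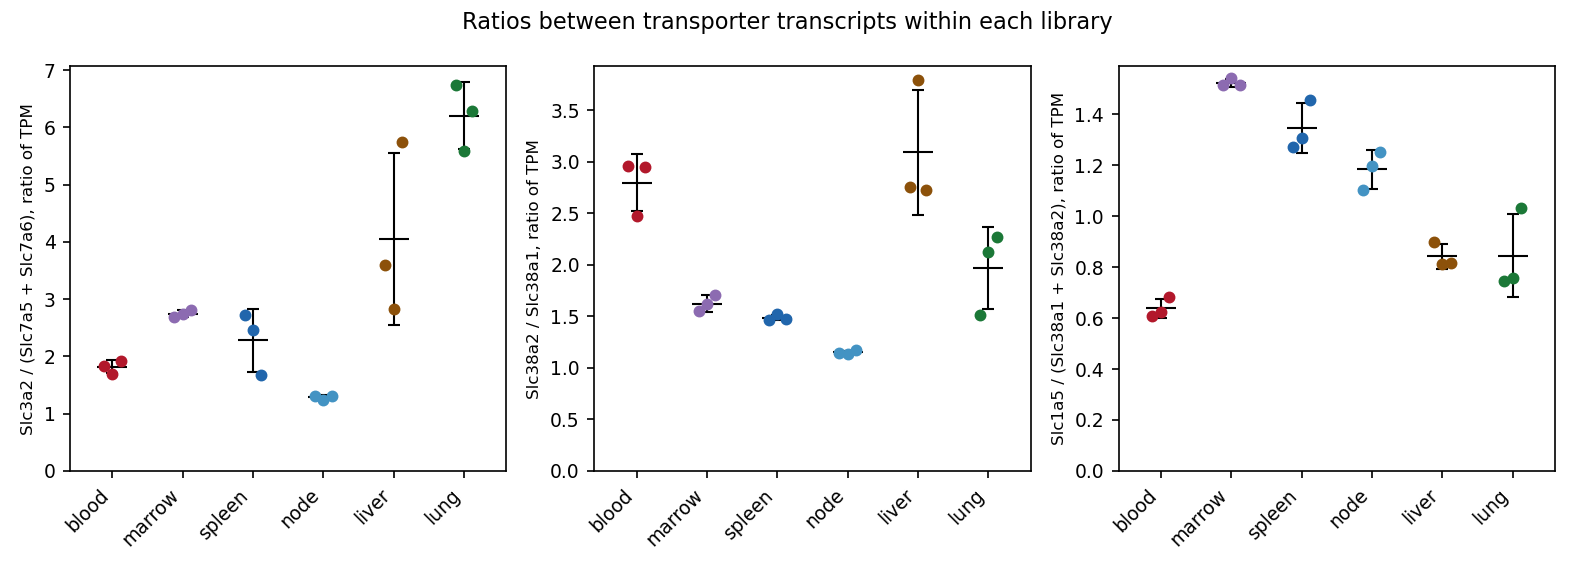
Ratios of TPM within each library (y axes, linear, from 0) by site (x axis), for Slc3a2 over its 2 light chain genes, Slc38a2 over Slc38a1, and Slc1a5 over the sum of Slc38a1 and Slc38a2. Points are libraries, dashes means and bars SD (n = 3). The first ratio averages 6.21 in lung and 1.29 in lymph node, the second 3.09 in liver and 1.15 in lymph node, and the third 1.52 in bone marrow and 0.638 in blood.

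Slc1a5, the neutral amino acid and glutamine exchanger, was most abundant in liver and bone marrow. Liver libraries held 221, 184 and 194 TPM and bone marrow libraries 182, 166 and 169 TPM. Lymph node held 127, 138 and 141 TPM, lung 114, 111 and 147 TPM, and spleen 108, 118 and 126 TPM. Blood held 92.9, 91.9 and 98.3 TPM. Every liver library lay above every bone marrow library, though the difference did not pass the test (log2 difference 0.21, adjusted p = 0.134). Both lay above every library of the other 4 sites, and blood lay below all other libraries. Liver exceeded spleen 1.70-fold (0.76, SE 0.10, limma adjusted p = 3.27e-05), lung 1.61-fold (0.69, adjusted p = 6.97e-05) and lymph node by 0.56 (adjusted p = 0.000597). Bone marrow exceeded spleen by 0.56 (adjusted p = 0.000597), lung by 0.48 (adjusted p = 0.00108) and blood by 0.86 (adjusted p = 6.45e-06). These 6 calls held in all alternatives. The lower level in blood than in spleen, lymph node and lung turned to a higher one with T cell scaling (0.65, 0.71 and 0.28). The bone marrow libraries also held the highest summed cell cycle markers (912 to 936 TPM, against 182 to 487 TPM elsewhere) beside their myeloid markers. The part of either in the Slc1a5 level was not tested.

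Slc38a2, a sodium-coupled transporter whose transcript rises in many cells when amino acids run short, passed the test in all 15 pairs of sites in TPM, and 11 of these calls held in every alternative. Liver libraries held 181, 179 and 174 TPM. Blood held 114, 105 and 108 TPM and lung 92.5, 99.6 and 99.1 TPM. Bone marrow held 73.2, 66.7 and 70.6 TPM, lymph node 61.4, 61.3 and 60.9 TPM and spleen 50.3, 54.3 and 51.6 TPM. The 6 groups did not overlap, and lymph node varied least, with an SD of 0.423% of its mean. Liver exceeded spleen 3.37-fold (log2 difference 1.75, SE 0.06, limma adjusted p = 5.36e-12), lymph node by 1.52 (adjusted p = 2.61e-11), bone marrow by 1.33 (adjusted p = 1.73e-10) and lung by 0.87 (adjusted p = 2.61e-08). Lung exceeded spleen by 0.89 (adjusted p = 9.28e-09) and lymph node by 0.66 (adjusted p = 3.03e-07). Blood exceeded spleen by 1.05 (adjusted p = 1.24e-09), lymph node by 0.82 (adjusted p = 1.94e-08) and bone marrow by 0.63 (adjusted p = 8.75e-07). Each of these held in all alternatives. Blood against lung (0.17, adjusted p = 0.0375) was lost in 9 alternatives, among them without the first or the third blood or the first lung library (adjusted p up to 0.143). Bone marrow against lymph node (0.19, adjusted p = 0.0298) was lost in 7, among them without the first or the third bone marrow or any 1 lymph node library (adjusted p up to 0.128). Spleen against lymph node (-0.23, adjusted p = 0.018) was lost or turned in 10, among them without the first or the third spleen or any 1 lymph node library (adjusted p up to 0.0649). Which of liver and blood was the higher depended on the scaling. Liver was higher by 0.70 in TPM (adjusted p = 1.23e-07) and blood by 0.27 after T cell scaling (adjusted p = 0.00119). The immediate early and heat shock genes measured beside it (10 genes) also had their highest sum in liver, at 11240 to 12644 TPM, against 6985 to 7039 TPM in bone marrow, 3916 to 4255 TPM in lung, 3108 to 3246 TPM in blood, 1072 to 1074 TPM in spleen and 782 to 790 TPM in lymph node. Their part in the Slc38a2 level was not tested.

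Slc38a1, the related sodium-coupled transporter, varied less. Liver held 65.5, 47.3 and 63.8 TPM and lymph node 53.6, 54.0 and 52.1 TPM. Lung held 61.1, 46.9 and 43.7 TPM and bone marrow 47.2, 41.3 and 41.3 TPM. Blood held 38.5, 42.5 and 36.5 TPM and spleen 34.3, 35.7 and 35.0 TPM. Spleen was below all libraries of the other sites, the liver, lymph node and lung ranges overlapped, and no neighbours in the order passed the test. Spleen was below liver (log2 difference -0.72, SE 0.13, limma adjusted p = 0.000619) and below lung (-0.51, adjusted p = 0.00588) in all alternatives. The ratio of Slc38a2 to Slc38a1 was 2.76, 3.79 and 2.72 in liver and 2.96, 2.48 and 2.95 in blood. It was 1.51, 2.12 and 2.27 in lung and between 1.14 and 1.71 in all bone marrow, spleen and lymph node libraries. Liver and blood libraries thus lay above all others in a ratio that no scaling can move, again described after the values were seen. RNA of other cells can enter such a ratio, and its part was not tested. Slc1a5 over the sum of Slc38a1 and Slc38a2 set the sites in another order. It was 1.51, 1.54 and 1.51 in bone marrow, 1.27, 1.31 and 1.46 in spleen and 1.10, 1.20 and 1.25 in lymph node. Lung gave 0.744, 0.758 and 1.03, liver 0.899, 0.810 and 0.817, and blood 0.609, 0.622 and 0.682. All bone marrow, spleen and lymph node libraries lay above 1 and above all lung, liver and blood libraries. The summed level of the 7 transporters was 676.7 ± 11.4 TPM in liver and 627.6 ± 46.3 TPM in lung, and between 341.2 and 428.2 TPM on average in the other 4 sites. After T cell scaling it was 571.4 ± 10.3 in liver, 569.0 ± 5.36 in blood and 657.5 ± 54.0 in lung, against 479.7 ± 24.5 in bone marrow, 296.9 ± 5.42 in lymph node and 294.1 ± 11.95 in spleen, so the low place of blood is lost.

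Slc7a1, the arginine and lysine transporter, peaked in lung. Lung libraries held 29.4, 29.5 and 30.3 TPM, liver 19.2, 18.5 and 22.2 TPM, and lymph node 18.7, 18.9 and 19.3 TPM. Bone marrow held 14.5, 15.4 and 12.9 TPM, spleen 14.2, 12.2 and 11.3 TPM, and blood 10.9, 10.9 and 9.97 TPM. All lung libraries exceeded all others, liver and lymph node overlapped (adjusted p = 0.726), and every blood library lay below every other. Lung exceeded blood 2.65-fold (log2 difference 1.41, SE 0.12, limma adjusted p = 6.04e-08), spleen 2.28-fold (1.19, adjusted p = 5.88e-07), bone marrow by 1.01 (adjusted p = 3.23e-06) and lymph node by 0.62 (adjusted p = 0.000403), all kept in every alternative. Lung exceeded liver by 0.56 (adjusted p = 0.00141), lost with library weights (0.55, adjusted p = 0.0668). Liver exceeded spleen by 0.63 (adjusted p = 0.000642) in all alternatives. Blood against bone marrow (-0.40, adjusted p = 0.0152) turned to 0.14 under T cell scaling (adjusted p = 0.379). Blood against spleen did not pass in TPM (-0.22, adjusted p = 0.157). T cell scaling put blood above spleen by 0.68 (adjusted p = 9.83e-05) and above lymph node by 0.37 (adjusted p = 0.0116). Blood stayed below lung by 0.79 under that scaling (adjusted p = 2.4e-05), so its lowest place held in TPM only.

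The promoter table of RefSeq (GRCm38.p6) matched 4 of the 8 genes, Slc3a2, Slc38a2, Slc7a1 and Slc7a6, with 6 start sites. The upstream sequences of Slc38a2 and Slc7a1 are shown, since these genes kept 11 and 5 of their calls in every alternative and their windows hold no annotated exon. Slc38a2 is read on the minus strand from chr15:96699731-96699978, with 2 bases next to the start site left out, and Slc7a1 on the minus strand from chr5:148399905-148400154. Capitals mark TGACG, a core of the cyclic AMP response element, which CREB, ATF and CREM proteins bind.
Slc38a2: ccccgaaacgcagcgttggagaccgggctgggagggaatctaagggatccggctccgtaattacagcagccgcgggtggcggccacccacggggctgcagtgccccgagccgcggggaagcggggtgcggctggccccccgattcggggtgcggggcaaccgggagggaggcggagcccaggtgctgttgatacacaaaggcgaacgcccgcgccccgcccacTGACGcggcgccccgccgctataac
Slc7a1: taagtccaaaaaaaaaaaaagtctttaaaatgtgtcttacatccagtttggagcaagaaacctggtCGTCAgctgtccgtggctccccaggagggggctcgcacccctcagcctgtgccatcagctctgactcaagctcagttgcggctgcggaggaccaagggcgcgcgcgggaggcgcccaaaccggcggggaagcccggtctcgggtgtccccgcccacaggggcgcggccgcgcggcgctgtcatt
TGACG was searched on both strands of the 250 bases before each start site, and 17.8% of all 32841 promoters in the table hold it. It begins 27 bases before the Slc38a2 start and 184 bases before the Slc7a1 start shown, where it stands on the opposite strand. Of the 2 Slc7a6 windows, 1 holds it too. The Slc3a2 window, the other Slc7a1 window and the other Slc7a6 window do not hold it. The E-box CACGTG, which Myc and Max bind, is in 6.02% of all promoters and in none of the 6 windows. A match describes these letters only.

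**Figure D4:**
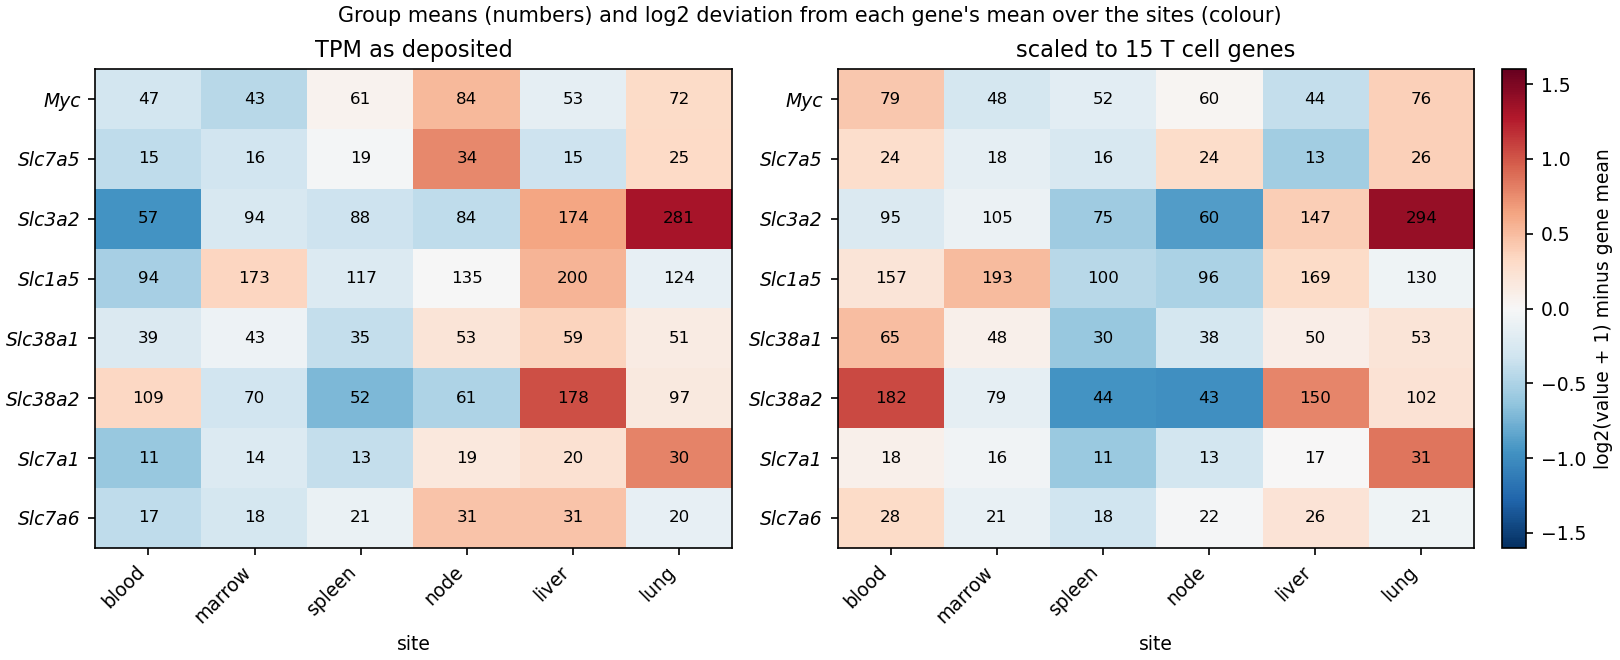
Mean level of each gene in each site, as TPM (left) and after T cell scaling (right). Numbers are means of 3 libraries, and colour is the deviation of log2(mean + 1) from the gene's average over the sites. Slc3a2 and Slc7a1 are highest in lung in both panels, while the blood column turns from mostly blue to mostly red.

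Blood against the 5 other sites was the comparison that turned most on the scaling. In TPM, 28 of 40 member comparisons with blood were called (37.6% over all genes), 24 with blood lower (17.7% of all genes and pairs) and 4 with blood higher (19.9%), and those 4 were Slc38a2 against bone marrow, spleen, lymph node and lung. After T cell scaling, 23 were called with blood higher (53.4% of all) and 4 with blood lower (4.65%). Of the 28, 8 kept their direction and call under both scalings. They were the 4 Slc38a2 calls, Slc3a2 below liver and lung, Slc7a1 below lung and Slc1a5 below bone marrow. The median difference of all genes moved as well, from -0.15 to 0.82 for blood against lymph node and from 0.12 to 0.67 for blood against lung. Blood Slc3a2 lay below that median against lung under both scalings (-2.28 and -1.62), and blood Slc38a2 lay above it against lymph node under both (0.82 and 2.04).

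**Figure D5:**
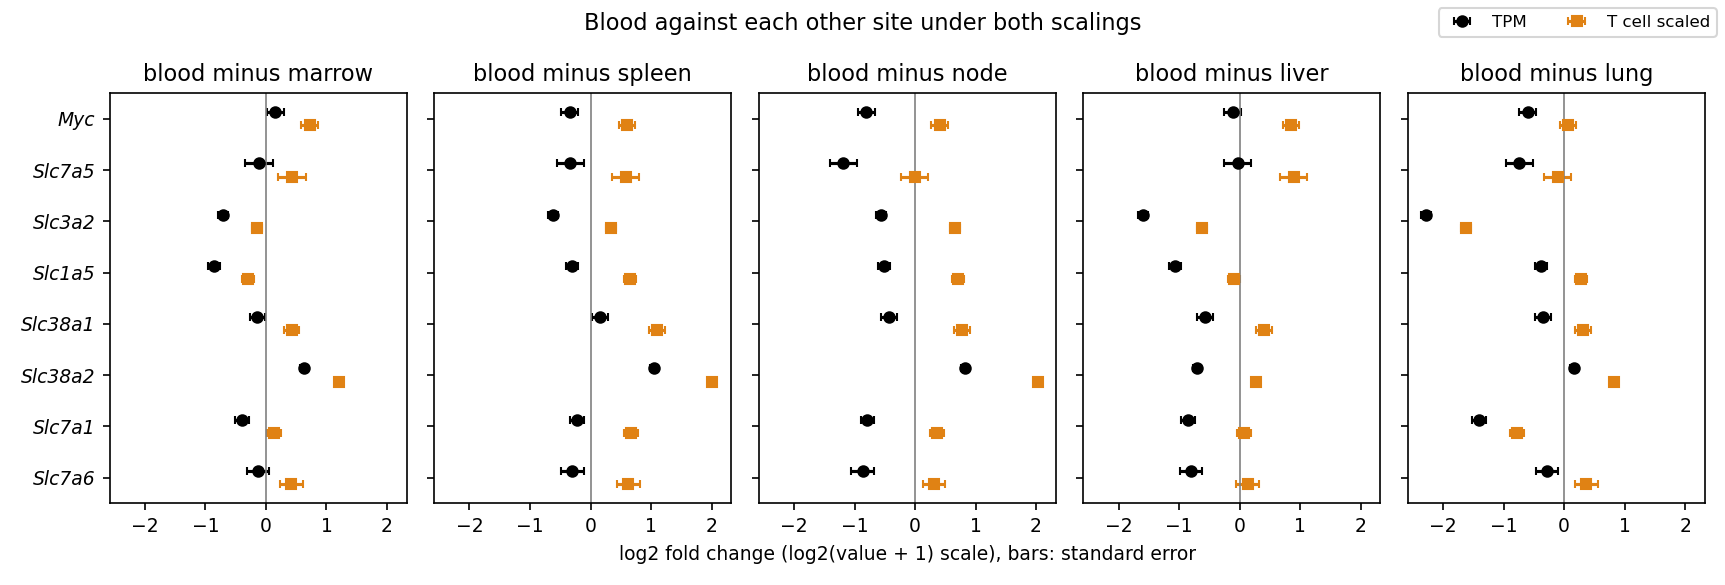
Log2 fold change of blood against each other site (x axis, log2(value + 1) scale, positive where blood is higher) for the 8 genes (y axis), in TPM (black circles) and after T cell scaling (orange squares), with standard errors. Slc3a2 lies left of 0 against liver and lung under both scalings, Slc38a2 lies right of 0 in 4 of 5 panels in TPM, and most other genes cross 0 between the scalings.

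Genes around Myc were read from lists of pathway genes, described by counts and medians only. The share of all genes with their highest mean in each site was not counted. Counts of list genes by site of their highest mean, here and below, therefore have no baseline. Of 13 tested Myc network genes (of 14 listed), 10 passed the F test, beside the 68.0% of all genes. The Mad-family antagonists Mxd1 and Mxi1, which compete with Myc for Max, were highest in lung. Mxd1 was 213.5 ± 9.83 TPM in lung, 139.4 ± 3.07 in blood, 99.6 ± 2.23 in bone marrow, 69.3 ± 13.6 in liver, 25.0 ± 3.12 in spleen and 24.3 ± 0.232 in lymph node (SD, n = 3). Mxi1 was 146 ± 19.8 TPM in lung against 18.9 ± 2.21 in lymph node. Lung exceeded lymph node by 3.08 for Mxd1 (limma adjusted p = 4.53e-12) and by 2.89 for Mxi1 (adjusted p = 3.54e-10). Lung and lymph node, the 2 sites with the most Myc in TPM, held the highest and lowest Mxd1 in TPM. After T cell scaling the Myc mean was highest in blood (79.2), followed by lung (75.9) and lymph node (59.6). Mnt, another antagonist, was also highest in lung (45.6 ± 4.31 TPM), and Mxd3 in bone marrow (13.9 ± 0.834 TPM).

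Of the 30 Myc target genes of growth, 27 passed the F test (68.0% of all genes) and 19 had their highest mean in lymph node. Against blood, lymph node had 25 of them higher and 1 lower, against 21.0% and 16.4% of all genes, and the median of blood minus lymph node was -0.77 beside -0.15 over all genes. With T cell scaling the direction turned, with 17 higher in blood and 0 lower and a median of 0.44, below the 0.82 of all genes (60.4% of all genes higher in blood, 1.57% lower). Lymph node against liver gave 17 higher and 3 lower (21.6% and 9.45% of all genes) and a median of 0.58 beside 0.19. With T cell scaling it gave 9 higher and 5 lower (24.6% of all genes in either direction) and a median of 0.33 beside a median over all genes of 0. Lymph node against lung gave 13 higher and 6 lower (27.4% and 14.9%), and 8 and 10 with T cell scaling (39.5% in either direction). Of the 30, 7 had their highest mean in lung, among them Odc1, the first enzyme of polyamine synthesis. It was 2468 ± 61.0 TPM in lung, 725 ± 65.7 in liver, 481 ± 16.4 in bone marrow and 84.0 ± 6.58 in lymph node, and lung exceeded lymph node by 4.86 (adjusted p = 4.47e-17). Srm, Shmt2 and Nme1, enzymes of polyamine, one-carbon and nucleotide metabolism, were each lowest in lung, at 7.46 ± 1.44, 25.6 ± 4.91 and 22.9 ± 8.92 TPM, and Srm and Shmt2 were highest in lymph node, at 42.0 ± 1.83 and 89.5 ± 2.37 TPM.

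All 15 genes for glutamine and branched-chain amino acid enzymes passed the F test (68.0% of all genes), and 8 had their highest mean in lung. Lung against lymph node gave 7 higher and 5 lower in lung (14.9% and 27.4% of all genes). The median of lymph node minus lung was -0.46 beside 0.20 over all genes, and -0.945 beside -0.16 with T cell scaling. Got1, the cytosolic aspartate aminotransferase, was 399.7 ± 7.0 TPM in lung, 103 ± 41.3 in liver and 14.4 ± 0.193 in blood. Gls2, a glutaminase, was 22.2 ± 2.01 TPM in lung, at most 1.55 ± 0.95 TPM in any other site, and listed at 0 in all blood and liver libraries. Lung exceeded spleen by 4.09 for Got1 (adjusted p = 7.11e-11) and by 4.04 for Gls2 (adjusted p = 1.38e-07). Gpt, an alanine aminotransferase, was lowest in lung at 3.22 ± 2.75 TPM, near blood at 4.57 ± 0.491 TPM. It was 10.4 ± 1.13 TPM in lymph node and 10.4 ± 1.68 TPM in spleen (limma F test over the sites, adjusted p = 0.0231).

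The other amino acid transporters were mostly low. Of 27 listed, 22 were tested and 16 passed the F test (68.0% of all genes), and 10 of the 22 had their highest mean in blood. Slc15a4, a lysosomal histidine and peptide transporter, was 43.6 ± 6.41 TPM in blood and 10.1 ± 0.717 TPM in liver. Slc7a10, a transporter of small neutral amino acids, was 28.2 ± 8.80 TPM in spleen, 9.27 ± 4.26 in lymph node and 0.583 ± 0.222 in blood. Slc38a5 and Slc43a1, carriers of glutamine and of large neutral amino acids, were highest in bone marrow, at 10.1 ± 1.47 and 12.8 ± 2.28 TPM. In blood they were at 0.15 ± 0.173 and 1.19 ± 0.156 TPM, the lowest mean of any site for Slc43a1. Neutrophil and monocyte markers are highest in the same 2 sites, blood and bone marrow, and their part in these levels was not tested.

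Among amino acid sensing and mTORC1 genes, 20 of 33 passed the F test (68.0% of all genes). Ddit4, an mTORC1 inhibitor induced by stress, was 202 ± 10.3 TPM in liver and 38.6 ± 2.07 TPM in blood. Eif4ebp1, the translation repressor that mTORC1 switches off, had the opposite ends, with 67.2 ± 1.65 TPM in blood and 5.63 ± 0.852 TPM in liver. Bone marrow came second for Eif4ebp1 at 32.5 ± 2.19 TPM, and lymph node, spleen and lung held at most 12.3 ± 1.12 TPM. Neutrophil and monocyte markers are also highest in blood and bone marrow, and their part in these levels was not tested. Lamtor4, of the lysosomal Ragulator complex, was 109.9 ± 4.54 TPM in bone marrow and 25.8 ± 4.32 TPM in lung, and Castor1, an arginine sensor, was 32.3 ± 3.71 TPM in lung and 10.1 ± 1.42 TPM in blood. Of 15 tested Atf4 target genes (16 listed), 13 passed (68.0% of all genes). Asns, asparagine synthetase, was 21.3 ± 1.20 TPM in bone marrow and at most 7.66 ± 5.23 TPM elsewhere, while Phgdh, the first enzyme of serine synthesis, was 132 ± 2.09 TPM in lymph node and 40.9 ± 3.70 TPM in blood. Of the 20 cytosolic aminoacyl-tRNA synthetases, 17 passed (68.0% of all genes) and 12 had their highest mean in lymph node. Lymph node exceeded lung for 12 of the 20 and was lower for 0 (27.4% and 14.9% of all genes). The median of that difference was 0.54 beside 0.20 over all genes, and -0.005 beside -0.16 with T cell scaling. With that scaling 1 was higher in lymph node and 5 were lower (39.5% of all genes in either direction). Vars, which loads valine, was 199.8 ± 8.72 TPM in bone marrow and 43.5 ± 4.53 TPM in lung, and Yars, Farsb and Tars spanned less.

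The genes most like each member were ranked by Pearson's r of log2(TPM + 1) over the 18 libraries among 9453 candidates, with no test, since libraries share site, depth and admixed RNA. For Slc3a2 they were Crem (r = 0.984), Cnbp (0.980) and Hif1a (0.973). Crem, a cyclic AMP responsive regulator, averaged 1337 TPM in lung and 503 TPM in liver, and between 11.8 and 38.2 TPM in the other sites. For Slc38a2 they were Mapk6 (0.957), the immediate early gene Nr4a1 (0.955) and Dnajb4 (0.923), and Nr4a1 averaged 3290 TPM in liver and 215 TPM in spleen. For Slc7a1 they were Usp36 (0.970), Itpkb (0.969) and Ppp1r16b (0.967), and for Slc1a5 Kif13b (0.972), Il9r (0.920) and CT010467.1 (0.916). The top match in TPM was lower for Myc (Ddx19b 0.925, Lef1 0.913, Eif4a1 0.912) and Slc7a6 (Birc6 0.889, Inpp4b 0.883, Rpl19-ps11 0.869). It was also lower for Slc38a1 (Ahr 0.885, Tnfaip1 0.869, Dhx9 0.865) and Slc7a5 (Bop1 0.839, Mbnl3 0.833, AC126937.1 0.828). With T cell scaling this order did not hold for the same genes. Myc with Lef1 then gave 0.931 and Slc38a1 with Tnfaip1 0.943, against 0.868 for Slc1a5 with Kif13b. Slc7a5 and Slc7a6 stayed lower, at 0.836 or below. Lef1, a factor of resting T cells, averaged 139 TPM in lymph node and 58.6 TPM in bone marrow, the same ends as Myc.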

How the data were processed

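Poly(A) RNA-seq libraries of Treg cells (18, from 6 sites) entered as TPM values per Ensembl gene, deposited by the authors. Per the submitters' processing notes, STAR, RSEM and mm10 were used. Their versions, the annotation and the strand setting of the counting are not given in the sources used here. No 2 tables were identical. Symbols and positions came from GENCODE M21 (GRCm38), which named 55141 of 55487 IDs.

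Limma 3.58.1 (R 4.3.3) was fitted to log2(TPM + 1) of all 18 libraries with 6 site means and trend and robust settings, on the 16694 genes averaging 1 TPM or more in any site. Fold changes are on that scale and understate low genes. The moderated F test and the 15 two-sided contrasts were adjusted by Benjamini-Hochberg over all genes of a test, with calls under 0.05. The script was tested on simulated data. As TPM keep no read totals, the value of 1 read at 1 kb was estimated from steps between low values. It averaged 0.380 TPM in liver, 0.235 in lung, 0.157 in spleen, 0.114 in bone marrow, 0.0864 in lymph node and 0.0807 in blood.

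The genes and lists were chosen with earlier results of these data known. Named are the 8 genes, the 3 most correlated genes of each (mean of at least 10 TPM in a site, no genes without a symbol, no Gm or Rik models and no antigen receptor or immunoglobulin segments), and up to 4 genes per pathway list with the widest span among those passing the F test. The alternatives were T cell scaling, removal of abundant RNA classes, quantile normalization, a pseudocount of 0.1, no filter, a filter at 5 TPM, no trend or robust setting, library weights, a replicate block, fits of the 2 sites compared, adjustment over all 15 contrasts, and leaving out each library. A fit without blood and bone marrow was added after the data were seen.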

Additional observations from a re-analysis of the deposited data

How the results depend on the processing

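Over 3528 recomputed single-gene values, 161 lost their call with the same sign, 47 gained one, and 65 had another sign, 41 of them under T cell scaling. Of these 65, 28 had a call before or after the change, all under T cell scaling. For the 28, as the first site minus the second on the log2 scale, blood minus spleen became 0.61 for Myc, 0.58 for Slc7a5, 0.33 for Slc3a2, 0.65 for Slc1a5, 0.68 for Slc7a1 and 0.63 for Slc7a6. Blood minus lymph node became 0.40 for Myc, 0.66 for Slc3a2, 0.71 for Slc1a5, 0.77 for Slc38a1, 0.37 for Slc7a1 and 0.31 for Slc7a6. Blood minus liver became 0.85 for Myc, 0.90 for Slc7a5, 0.40 for Slc38a1, 0.27 for Slc38a2, 0.067 for Slc7a1 and 0.13 for Slc7a6. Blood minus lung became 0.063 for Myc, 0.28 for Slc1a5 and 0.31 for Slc38a1, and blood minus bone marrow 0.42 for Slc38a1 and 0.14 for Slc7a1. Bone marrow minus lymph node became 0.35 for Slc38a1 and 0.23 for Slc7a1, lymph node minus lung -0.42 for Slc1a5 and -0.46 for Slc38a1, and spleen minus lymph node 0.030 for Slc38a2. The cause was not tested. The scaling factors ran from 0.593 in a blood library to 1.41 in a lymph node library.

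Counts of called genes moved by over 1.5 times in these cases. Under T cell scaling, blood against spleen went from 5912 to 9893, blood against lymph node from 6249 to 10339, blood against liver from 6580 to 11208, bone marrow against spleen from 4031 to 7179 and bone marrow against lymph node from 3764 to 7979, and Slc7a6 from 7 to 1 of 15 contrasts. Library weights gave 8930 for blood against bone marrow (5308 before), 10167 for blood against lymph node, 7766 for bone marrow against lymph node, 4400 for spleen against lymph node (2390 before), 3035 for spleen against liver (5219 before) and 2760 for liver against lung (5818 before). Fits of only the 2 sites gave, in the same order, 8425, 9724, 7254, 3707, 2220 and 1966, and 4 contrasts for Slc7a6. The fit without blood and bone marrow gave 1345 for spleen against lymph node and lost 6 of the 31 member calls among its sites. Leaving out 1 library moved that count between 1560 (without the third lymph node library) and 2844 (without the first liver library), and the 79 member calls between 71 and 83.

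After the site means were removed, libraries of different sites with the same replicate number had correlations of -0.034 to 0.03 over 45 pairs. Pairs of different number had -0.035 to 0.04 over 90 pairs. These are not correlations of the expression levels themselves. Of 18 libraries, 9 were closest to their own number. With 3 libraries a site, this cannot show whether the numbers pair samples. A replicate block kept 77 of the 79 member calls and lost Slc38a2 in blood against lung and Slc7a6 in spleen against liver, both at an adjusted p of 0.0563. The liver libraries were the shallowest, and the SD of their Slc7a5 and Slc7a6 values was 37.5% and 33.5% of the mean, against 9.92% for Slc7a1. The part of depth in this was not tested.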
